A study of Zea mays with 9 samples.

Results

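In the root apices of maize seedlings, 104 genes had nearly the same level with and without nitrate but stood at least 4-fold above both of those levels when nitrate was given together with cPTIO, a compound that scavenges nitric oxide (NO). These were 104 of the 45260 genes in the table. They were chosen by their measured values in all 3 conditions: a ratio of +NO3- to -N between 0.667 and 1.5 with both values above 0, at least 5 RPKM with cPTIO, and a level with cPTIO at least 4 times the larger of the other levels. RPKM are reads per kilobase of transcript, scaled between libraries by quartile normalization. The levels below therefore describe the genes that the rule picked and carry no test, because the same values chose them. The rule also names 3 identifiers to be left out, none of which would have passed it, and considers only identifiers of the Zm00001d series. No other identifier in the table met its limits.

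Nitrate is both the main nitrogen source of cereal roots in aerated soil and a signal that changes root gene expression and growth. NO is a short-lived gas that plant cells can make from nitrite, the product of nitrate reductase, and it acts as a messenger in roots, partly by modifying proteins. cPTIO is a nitroxide that reacts with NO and converts it to nitrogen dioxide, so it is widely used to ask which effects of a treatment need NO. Genes that respond to nitrate through NO are the usual readout of such an experiment, whereas the genes described here did not respond to nitrate within the limits of the rule and yet differed when cPTIO was present.

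Seedlings of the inbred line B73 were 3 days old when they were moved to a solution without nitrogen for 24 h. They then spent a further 24 h without nitrogen (-N), with 1 mM nitrate (+NO3-) or with 1 mM nitrate and 1 mM cPTIO (+NO3- + cPTIO), and the root apices of pooled seedlings were sequenced. The labels list 9 libraries, 3 per condition, and the study states that 2 of the +NO3- + cPTIO libraries were kept. The table holds 1 pooled value per gene and condition, so it shows neither the spread between replicates nor the depth behind each value. No test was possible from it. The study gives the reads per library and ran its own tests between conditions, and neither was used here. The -N and +NO3- libraries are labelled as re-analysed from earlier work and the cPTIO libraries are not, so the compound and the set of libraries cannot be told apart, and without a group given cPTIO but no nitrate the removal of NO and other effects of the compound cannot be told apart either.

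The members were weakly to moderately expressed without cPTIO and mostly well expressed with it. Their median level was 2.81 RPKM in -N, 2.61 RPKM in +NO3- and 22.6 RPKM in +NO3- + cPTIO. From the lower to the upper quartile, members lay in -N between 1.25 and 8.51 RPKM, in +NO3- between 1.22 and 8.93 RPKM, and with cPTIO between 10.9 and 71.1 RPKM. The highest level of any member was 43.4 RPKM in -N (Zm00001d028693) and 56.3 RPKM in +NO3- (another gene, Zm00001d018809). With cPTIO, 34 members were at 50 RPKM or more and 19 were at 100 RPKM or more. In this bulk tissue, more cells of a type and more RNA per cell cannot be told apart.

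Between -N and +NO3- the members hardly differed, as the rule requires. The median ratio of +NO3- to -N was 1.02, with 56 members above 1 and 48 below, and 72 of the 104 stayed within a narrower band of 0.8 and its inverse. The ranking of members by level was almost the same in both conditions (Spearman rho 0.985 over 104 genes, which share the libraries and were chosen for near-equal values). Being indifferent to nitrate was itself common: of the 14661 genes with at least 5 RPKM with cPTIO and values above 0 elsewhere, 13390 lay within the band (91.3%).

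**Figure D1:**
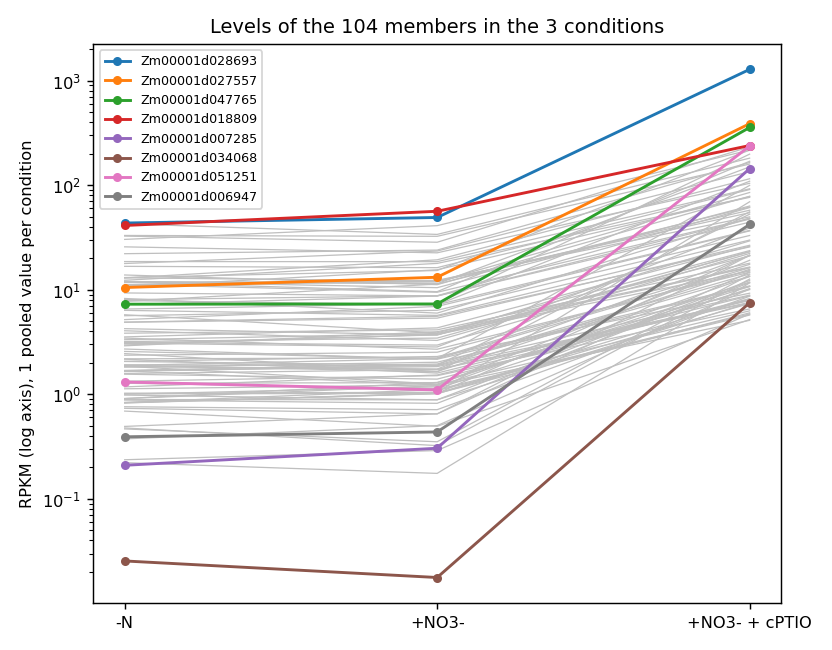
Level of each of the 104 members in -N, +NO3- and +NO3- + cPTIO, in RPKM on a log axis, with 1 pooled value per condition and 8 members in colour. The lines are nearly flat between -N and +NO3-, as the rule requires, and rise to between 5.10 and 1280 RPKM with cPTIO.

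A level at least 4-fold higher with cPTIO was rare in the table. Of the genes compared, 257 of 15793 (1.63%) were at least 4-fold higher with cPTIO than in +NO3-, and 329 of 15558 (2.11%) than in -N. Both sets are larger than the set of genes of at least 5 RPKM with cPTIO, so these shares have another base than the next. Among the 13390 genes within the nitrate band and at 5 RPKM or more with cPTIO, the 104 members made up 0.777%. The rule itself fixes that share. Counting all 198 Zm00001d genes that met the fold and the minimum, 104 were members (52.5%), 50 were higher with nitrate than the band allows, 38 were lower with nitrate, and 6 were listed at 0 in 1 or both of the other conditions. The 38 genes lower with nitrate had a median ratio of 9.52 and the 50 higher with nitrate one of 7.22, beside 6.05 for the members.

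**Figure D2:**
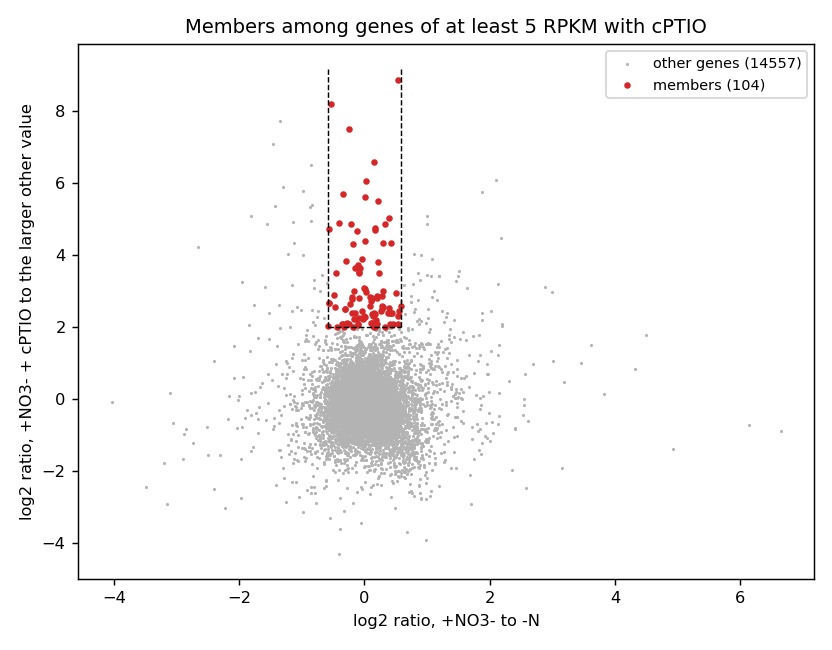
Each point is a gene with at least 5 RPKM with cPTIO and values above 0 elsewhere, placed by the log2 ratio of +NO3- to -N and by the log2 ratio of +NO3- + cPTIO to the larger other value. The 104 members in red fill the space between the dashed limits of the rule, and strongly raised genes also lie on both sides of it.

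The rule was also applied with the roles of the conditions exchanged. Among genes alike in -N and +NO3- + cPTIO and at 5 RPKM or more in +NO3-, 7 of 11115 (0.063%) stood at least 4-fold above both in +NO3-. Among genes alike in +NO3- and +NO3- + cPTIO and at 5 RPKM or more in -N, 5 of 10574 (0.0473%) stood at least 4-fold above both in -N, beside the 0.777% with cPTIO. Since -N and +NO3- are the conditions with re-analysed libraries, the set of libraries differs in the same way. The mirrored rule, which asks for at least 5 RPKM in -N and +NO3- and a level with cPTIO at least 4 times below the smaller of them, found 66 lowered genes, of which 2 were listed at 0 with cPTIO and the rest were lower by a median of 5.78-fold and by up to 39.1-fold. No share of eligible genes was computed for the lowered genes, so their count cannot be set beside the shares above. The lowered genes summed to 3618, 3436 and 505 RPKM in -N, +NO3- and +NO3- + cPTIO.

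Together the members accounted for a small part of the summed RPKM of all genes that grew with cPTIO. Their sum was 701 RPKM in -N, 741 RPKM in +NO3- and 7119 RPKM in +NO3- + cPTIO, a rise that the rule requires. These sums are 0.0791%, 0.0809% and 0.920% of the summed RPKM of all genes in those conditions. That total was 885720, 915808 and 773454 RPKM in the same order, so part of the larger share comes from a smaller total. The 10 members with the highest level with cPTIO held 49.8% of the members' sum there, and 1 gene alone held 18.0%, against 6.20% and 6.62% in -N and +NO3-. Without that gene the sums were 657, 692 and 5838 RPKM. In the order of all 45260 genes by level, no member was among the first 1000 in -N or +NO3-, whereas 16 were with cPTIO, 8 of them among the first 500. The rule requires a higher level with cPTIO, so a move up this order follows from it.

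The gene that dominated this sum was Zm00001d028693 on chromosome 1 (43343007 to 43345059, coordinates of the AGPv4 assembly as the table lists them), at 43.4 RPKM in -N, 49.1 RPKM in +NO3- and 1280 RPKM in +NO3- + cPTIO. It moved from rank 3689 in -N and rank 3222 in +NO3- to rank 27 among all genes, 26.1-fold above the larger other value. Zm00001d027557 (chromosome 1, 8129041 to 8130156) followed with 10.5, 13.2 and 387 RPKM in the same order, a ratio of 29.4. Zm00001d047765 (chromosome 9, 141344055 to 141346400) was almost equal in -N and +NO3-, at 7.27 and 7.31 RPKM, and reached 356 RPKM with cPTIO, 48.7-fold higher. No other member exceeded 239 RPKM with cPTIO.

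The next members by level with cPTIO had more varied starting points. Zm00001d018809 (chromosome 7, 5834879 to 5838491) had the highest level of any member in +NO3-, with 41.2, 56.3 and 239 RPKM, so its ratio was only 4.25. Zm00001d051251 (chromosome 4, 150629030 to 150631205) reached nearly the same level, 237 RPKM, from 1.31 RPKM in -N and 1.10 RPKM in +NO3-, a ratio of 181. With cPTIO the pair could hardly be told apart by level, while their ratios lay at opposite ends of the list. Zm00001d031267 had 32.6, 28.4 and 232 RPKM and Zm00001d002503 had 30.3, 41.0 and 217 RPKM, ratios of 7.13 and 5.29. Zm00001d017240 rose from 13.1 and 15.3 RPKM to 216 RPKM, 14.2-fold, and Zm00001d009938 from 6.54 and 7.35 RPKM to 198 RPKM, 27.0-fold. Zm00001d005002 and Zm00001d046952, at 42.7 and 33.0 RPKM in -N, at 33.8 and 32.4 RPKM in +NO3- and at 181 and 159 RPKM with cPTIO, complete the members with the highest starting levels, with ratios of 4.24 and 4.82.

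Ratios spanned a range from 4.02 to 472, with a median of 6.05 and an upper quartile of 12.5. Of the 104 members, 32 had a ratio under 5 and 41 one from 5 to under 10, while 20 were at 20 or more. Against each condition singly, the median ratio was 7.14 to -N and 6.92 to +NO3-.

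The largest ratio belonged to Zm00001d007285 (chromosome 2, 226813482 to 226814994), which was nearly silent at 0.209 RPKM in -N and 0.305 RPKM in +NO3- and stood at 144 RPKM with cPTIO, 472-fold higher. Its rank among all genes went from 24117 in -N to 882 with cPTIO. Zm00001d034068 (chromosome 1, 283075493 to 283077341) was lower still without cPTIO, at 0.0255 and 0.0177 RPKM, and reached 7.50 RPKM, a ratio of 295 that rests on values close to 0. Zm00001d006947 had 0.392, 0.436 and 42.1 RPKM, a ratio of 96.5, and Zm00001d020134 had 1.02, 1.04 and 69.4 RPKM, a ratio of 66.4. Zm00001d021647 stood at 1.89, 2.19 and 99.5 RPKM, 45.4-fold higher. The list of the 10 largest ratios is completed, beside Zm00001d051251 and Zm00001d047765, by Zm00001d024800 with 0.222, 0.175 and 11.6 RPKM (52.4-fold), Zm00001d043610 with 0.493, 0.649 and 21.3 RPKM (32.8-fold) and Zm00001d034107 with 0.466, 0.351 and 13.9 RPKM (29.7-fold). Only 2 genes were among both the 10 largest ratios and the 10 highest levels.

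**Figure D3:**
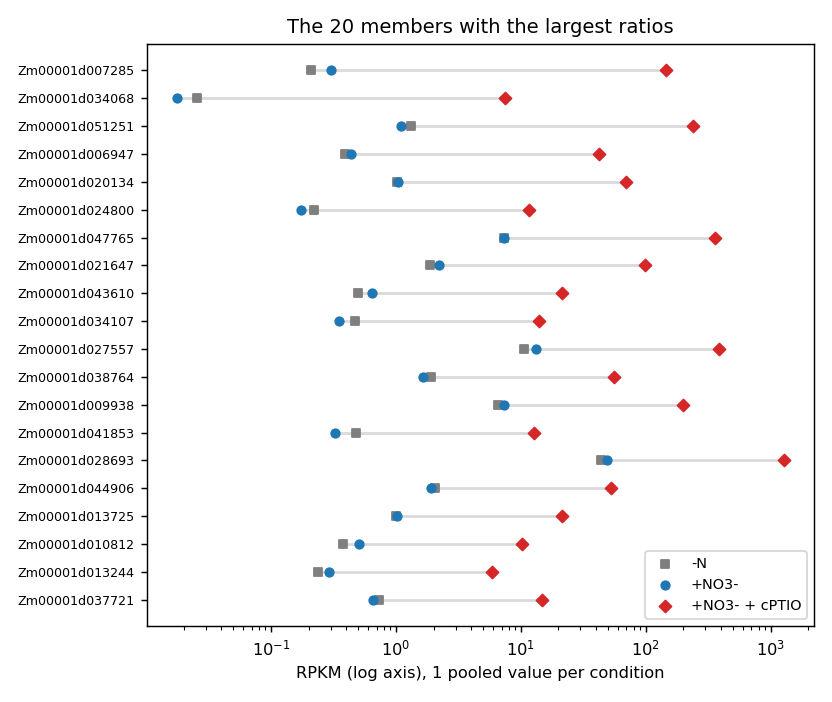
RPKM (log axis) of the 20 members with the largest ratios, with grey squares for -N, blue circles for +NO3- and red diamonds for +NO3- + cPTIO, 1 pooled value each. The squares and circles lie close together in every row, as the rule requires, while the starting levels run from under 0.1 RPKM for Zm00001d034068 to 49.1 RPKM for Zm00001d028693.

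Members that started low had the larger ratios, and members that started high reached the higher levels. Among the 40 members whose larger value without cPTIO was 5 RPKM or more, the median ratio was 5.28 and the median level with cPTIO 81.7 RPKM. The 49 members that started between 1 and 5 RPKM had a median ratio of 6.06 and a median level of 14.1 RPKM, and the 14 that started between 0.1 and 1 RPKM had a median ratio of 20.3 and a median level of 11.97 RPKM. The remaining member, Zm00001d034068, started under 0.1 RPKM. A gene that starts low must reach 5 RPKM to be chosen, so the higher ratios of the low starters follow in part from the rule. Level without cPTIO and level with it went together across members (Spearman rho 0.76 over 104 genes), a relation that the required 4-fold difference also sets in part.

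The limits of the rule cut through a continuous distribution. The members nearest the 4-fold limit were Zm00001d031133, Zm00001d014789 and Zm00001d014328, with ratios of 4.02, 4.03 and 4.03, and the genes just outside were Zm00001d045800, Zm00001d029091 and Zm00001d004361, with 3.99, 3.96 and 3.94. At the 5 RPKM minimum, Zm00001d036402, Zm00001d008974 and Zm00001d037005 lay inside at 5.10, 5.18 and 5.73 RPKM, and Zm00001d045063, Zm00001d001835 and Zm00001d038552 outside at 4.93, 4.89 and 4.72 RPKM. At the upper limit of the nitrate ratio, Zm00001d039674, Zm00001d021596 and Zm00001d046210 were inside at 1.49, 1.46 and 1.46, and Zm00001d036761, Zm00001d020714 and Zm00001d050323 outside at 1.502, 1.54 and 1.57. At the lower limit, Zm00001d025012, Zm00001d004401 and Zm00001d043898 were inside at 0.672, 0.674 and 0.676, and Zm00001d044442, Zm00001d011418 and Zm00001d021119 outside at 0.662, 0.639 and 0.627. Some of the genes left out at that limit were strongly expressed with cPTIO, such as Zm00001d021119 at 15.7, 9.86 and 171 RPKM and Zm00001d044442 at 11.3, 7.47 and 107 RPKM.

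Position in the genome was not used by the rule. Members lay on all 10 chromosomes, with 21 on chromosome 1, 17 on chromosome 2 and 14 on chromosome 3, which makes 20.2%, 16.3% and 13.5% of the members beside 15.7%, 11.4% and 11.1% of the 14661 genes of at least 5 RPKM with cPTIO. Chromosome 10 held 2 members, 1.92% of the list beside 6.43% of those genes. Per 1000 of those genes the count ran from 2.12 on chromosome 10 to 10.2 on chromosome 2, and no test was made of these shares.

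**Figure D4:**
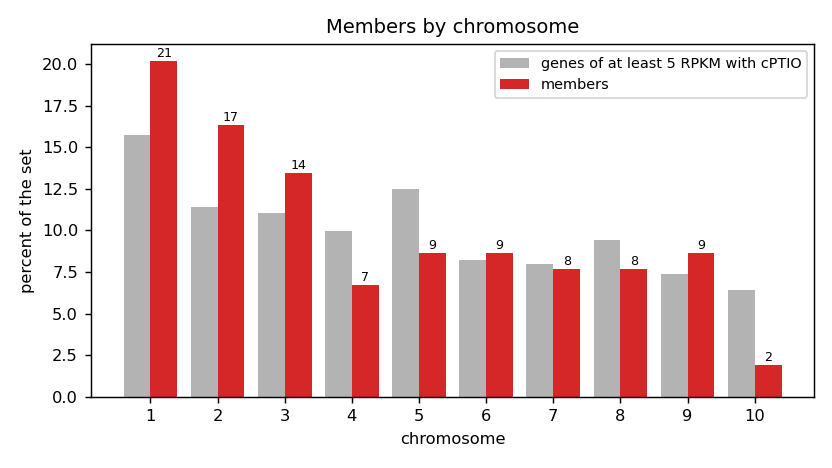
Percent of the 104 members (red, with their number above each bar) and of the 14661 genes of at least 5 RPKM with cPTIO (grey) on each of the 10 chromosomes. Members exceed the grey bar most on chromosomes 1 and 2 and fall below it most on chromosome 10.

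The loci of members had a median length of 3014 bases, shorter than the 4542 bases of the 14661 genes and longer than the 1643.5 bases of the lowered genes. The other raised genes were shorter, with medians of 2016.5 bases for those lower with nitrate and 1489 bases for those higher with nitrate. Zm00001d010812 and Zm00001d025012 were the longest members, at 22738 and 18314 bases, and Zm00001d024800 and Zm00001d043610 the shortest, at 288 and 327 bases. Because RPKM divides by transcript length, few reads give a high value for such short genes.

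Most members had no other member within 100 kb. The exceptions were 4 members, in 2 pairs on chromosome 1. No matching share over all genes was computed for this count, so it cannot be called low or high. Such a share is given below for raised genes of any kind near members. Zm00001d028692 (43328451 to 43334856) lay 8151 bases from Zm00001d028693 and had 11.2, 11.9 and 85.1 RPKM, a ratio of 7.15, so the member with the highest level with cPTIO had another raised gene near it. No other gene of at least 1 RPKM with cPTIO within 100 kb of this pair was raised 4-fold.

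The second pair was Zm00001d034103 (284052292 to 284053326), with 2.96, 3.73 and 15.1 RPKM and a ratio of 4.04, and Zm00001d034107, 73955 bases away. Between them lay Zm00001d034104, which at 5.60, 3.33 and 27.2 RPKM was raised 4.86-fold but fell outside the nitrate band, and Zm00001d034105 and Zm00001d034106, both listed at 0 in every condition. The stretch thus held 3 raised genes whose levels without cPTIO ranged from 0.351 to 5.60 RPKM.

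Counting any gene of at least 1 RPKM with cPTIO that was 4-fold above both other conditions, 10 of the 104 members (9.62%) had such a gene within 100 kb, beside 4.45% of the 14661 genes of at least 5 RPKM with cPTIO, and 94 had none. Zm00001d006947 lay 9227 bases from Zm00001d006948, which had 0.0729, 0.0763 and 4.20 RPKM and was kept out of the list by the 5 RPKM minimum. Zm00001d024800 had Zm00001d024799 at 15319 bases, listed at 0 in -N and at 0.112 and 9.41 RPKM in the other conditions, and their loci are only 288 and 297 bases long. Zm00001d044906 (2.06, 1.90 and 52.8 RPKM) lay 32716 bases from Zm00001d044908 (1.44, 0.732 and 23.3 RPKM). Each of these members was thus accompanied by a raised gene that missed the list, through the minimum, a value of 0 or the nitrate band. For Zm00001d033585, Zm00001d042740 and Zm00001d009938 the raised genes within the window were Zm00001d033583 at 34.9 RPKM, Zm00001d042739 at 7.32 RPKM and Zm00001d009939 at 2.79 RPKM with cPTIO.

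Most genes directly next to members did not share the pattern, as is so for genes in general, but raised genes made up a larger share of them than of all genes. Of the 125 adjacent genes with at least 1 RPKM in some condition, 11 (8.80%) were at least 2-fold above both other conditions with cPTIO, beside 5.04% of all 21410 such genes, 7 (5.60%) were at least 4-fold above both, beside 1.58%, and 6 (4.80%) were at least 2-fold below both, beside 7.18%. Of the 123 that were not themselves members, 9 (7.32%) were 2-fold above both and 5 (4.07%) 4-fold. Their median ratio was 0.917, beside 0.888 over all genes, so the middle of the neighbours lay close to that of the table. Neither gene beside the strongly raised Zm00001d047765 was raised. Zm00001d047766, 827 bases away, had 90.6, 88.5 and 74.6 RPKM, and Zm00001d047764 on the other side had 5.10, 7.37 and 1.75 RPKM. Other members, such as Zm00001d006947, had a strongly raised gene directly beside them.

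**Figure D5:**
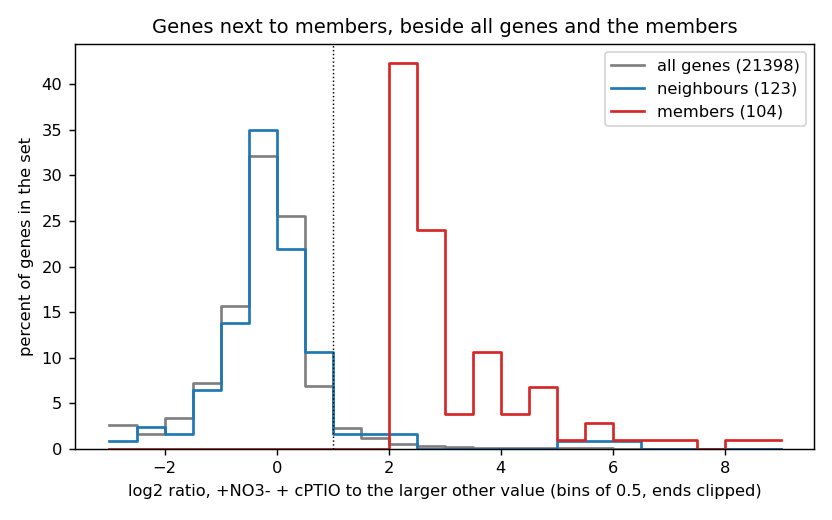
Percent of genes in bins of 0.5 of the log2 ratio of +NO3- + cPTIO to the larger other value, for all genes with a ratio and at least 1 RPKM in a condition (grey), genes adjacent to members that are not members (blue, 123) and members (red, 104), with a dotted line at 2-fold. The blue line follows the grey one over most of its range, with medians of 0.917 and 0.888 as ratios, while the members start at 4-fold by the rule.

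For 5 members the table gives the same locus entry to a second gene, and reads of genes that overlap could be split between them in either way. Zm00001d031133, at 2.71, 2.16 and 10.9 RPKM, shares its entry with Zm00001d031132, which is far more abundant at 154, 152 and 199 RPKM, so a small shift of reads between them would change its level. Zm00001d010812 shares one with Zm00001d010811 (15.8, 16.7 and 17.3 RPKM) and Zm00001d043800 with Zm00001d043801 (2.98, 3.01 and 3.01 RPKM), both nearly level across the conditions. The partners of Zm00001d012909 and Zm00001d016219, Zm00001d012910 and Zm00001d016220, were under 0.3 RPKM throughout. Without these members the list holds 99 genes.

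Genes of the root cap, the layer covering the root tip, and of root hairs, taken from those that the study names in its text or its primer list and grouped here by their names, did not all change in 1 direction. The root cap genes summed to 47.7, 11.0 and 28.9 RPKM in -N, +NO3- and +NO3- + cPTIO, most of it from a root cap-specific protein at 44.7, 6.04 and 23.0 RPKM, while SOMBRERO stood at 1.17, 4.77 and 4.65 RPKM and bearskin 2 at 1.77, 0.207 and 1.19 RPKM. The root hair genes summed to 8.16, 3.09 and 2.15 RPKM, with roothairless6 at 7.90, 2.39 and 0.170 RPKM and ROOT HAIR DEFECTIVE 3 homolog 2 moving the other way, at 0.259, 0.698 and 1.98 RPKM. None of the 5 genes was at 0, and the reference gene MEP had 229, 230 and 200 RPKM. The part of these differences in the cPTIO result was not tested. Bearskin 2 (Zm00001d003583) lies 39441 bases from the member Zm00001d003584, which had 11.8, 9.58 and 169 RPKM. Both genes were higher with cPTIO than in +NO3-, but bearskin 2 stayed below its -N level while the member rose above its own.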

How the data were processed

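RNA-seq of root apices was deposited as 1 table of RPKM, with 1 value per gene and condition. The authors trimmed reads with Trimmomatic 0.33, mapped them to the B73 RefGen_v4 (AGPv4) assembly with TopHat2 2.0.13 and computed the deposited RPKM with Cuffdiff of Cufflinks 2.2.1, using quartile normalization and multi-read correction, so near-identical copies share reads. Whether strand was used in counting is not given in the sources used here. Ratios were computed without a pseudocount in Python 3.11.15 with pandas 2.3.3 and tested on simulated data. No p-value, SD or interval was computed, because the table has 1 value per condition, and the authors' own test results were not used here. The members and lists were chosen with earlier results of these data known. Named genes are the 10 largest ratios, the 10 highest levels with cPTIO, the 5 highest starting levels, members within 100 kb of another, the 3 genes on each side of each limit, and the 2 longest and 2 shortest loci; the other genes named, neighbours and sharers of a locus among them, were chosen after their values were seen. The gene-name table used here, of another assembly, matched 0 members, so no names, families or sequences are given. Alternatives were compared by counts, and a value was taken as moved beyond 1.5-fold.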

Additional observations from a re-analysis of the deposited data

How the results depend on the processing

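The number of members depended on the fold limit: 418 genes passed at 2-fold, 165 at 3-fold and 35 at 8-fold, against 104 at 4-fold. It stayed between 72 and 151 under the other nitrate bands and RPKM minimums, pseudocounts, rescalings and identifier choices run. A pseudocount of 1 RPKM gave 107 genes, of which 78 were shared with the 104, and rescaling to the same median ratio gave 109, of which 100 were shared. Leaving out members that share a locus, an alternative chosen after seeing the data, gave 99. The median log2 ratio of 2.60 ranged from 2.30 to 2.66. The number of members with another within 100 kb was 4, and 2 with a window of 20 kb or of 50 kb. The number of lowered genes was 535 at 2-fold and 19 at 8-fold, against 66 at 4-fold, and 44 with a pseudocount of 1 RPKM. The members' share of summed RPKM with cPTIO, 0.920%, was 1.01% over the Zm00001d series alone and 0.755% without the highest member. No paired analysis was possible because each condition has 1 pooled value, and replicates could not be left out in turn for the same reason.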

Other observations

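The rule leaves out genes listed at 0 without cPTIO, for which no ratio can be formed. Of these, 3 were listed at 0 in both -N and +NO3- and had similar levels with cPTIO: Zm00001d018566 at 20.05 RPKM, Zm00001d017372 at 19.9 RPKM and Zm00001d043828 at 19.2 RPKM. A further 3 were listed at 0 in -N alone. Zm00001d016401 had 2.91 RPKM in +NO3- and 23.2 RPKM with cPTIO, Zm00001d049061 had 1.08 and 5.67 RPKM, and Zm00001d024799 had 0.112 and 9.41 RPKM. An entry of 0 in this table can also be an estimate that failed, and no fold is given for these genes.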
